A study of Mus musculus with 2 samples.

Results

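The scarce piRNAs that begin with U and have the length of PIWI-bound piRNAs were examined in GC-1 cells, an immortalised line of mouse spermatogonia. Members were the piRNAs in the deposited tag lists with an annotated length of 26 to 32 nt, an annotated sequence that starts with T (the files write U as T) and 1 to 99 reads summed over both libraries. mmu_piR_030130, mmu_piR_003399 and mmu_piR_038322 were left out by name, although only mmu_piR_003399 starts with T. Of 90 piRNAs with a read, 63 had this length, 36 of them started with T, and 29 were members. Members were selected on length, first base and summed reads, so these are given as a description only.

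There were 2 libraries, and no batch, animal or replicate number is given for them. Cells of the control had 0 nM MC-LR in their DMEM with serum and those of the exposed library had 500 nM, over 24 h in both cases. MC-LR is microcystin-LR, a cyanobacterial peptide that inhibits serine/threonine protein phosphatases. With 1 library per group no condition was tested and no replicate check was possible. All intervals below are 95% exact binomial (Clopper-Pearson) intervals or are derived from them. They cover counting error only and treat each read as independent, or each piRNA where a share of piRNAs is given. Reads copied by PCR are not independent molecules, so the intervals may be too narrow even for counting error. Reads assigned to piRNAs numbered 244066 in the control and 359871 in the exposed library. Levels are given per 1000000 such reads (CPM), where 1 read equals 4.10 in the control and 2.78 in the exposed library. The files list piRNAs alone, so no marker of spermatogonia was measured.

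piRNAs are small RNAs of the germ line that guide PIWI proteins to transposon RNA and other transcripts. Primary piRNAs mostly begin with U, a base favoured by PIWI proteins. In the ping-pong cycle a piRNA-guided cut sets the 5′ end of a partner on the opposite strand, so that the partners overlap by 10 nt at their 5′ ends and the partner of a U-first piRNA carries A at position 10. A piRNA that is a true PIWI-bound species usually has a sharp 5′ end, while its 3′ end is trimmed and varies more. Fragments of repeats, ribosomal RNA or small nuclear RNA can also stand in piRNA collections.

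Ordered by their overlaps, 16 of the 29 members tiled a stretch of 80 nt, pieced together from sequences that differ at some bases. They held 29 of 53 member reads in the control and 36 of 50 in the exposed library. These members are printed because their shared letters link most of the set. The first T and, where present, the A at position 10 are in capitals, and each sequence is written 5′ to 3′ from the deposited files. The 4 members of the stretch that are 31 nt long are described by position only.
mmu_piR_030955: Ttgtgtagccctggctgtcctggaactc
mmu_piR_004114: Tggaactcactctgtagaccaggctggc
mmu_piR_004115: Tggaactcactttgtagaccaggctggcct
mmu_piR_009082: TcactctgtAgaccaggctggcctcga
mmu_piR_009083: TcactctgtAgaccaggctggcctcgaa
mmu_piR_009084: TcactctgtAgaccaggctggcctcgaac
mmu_piR_004801: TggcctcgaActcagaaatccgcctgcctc
mmu_piR_004802: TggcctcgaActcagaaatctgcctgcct
mmu_piR_021115: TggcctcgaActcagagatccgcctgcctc
mmu_piR_001523: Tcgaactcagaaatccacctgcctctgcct
mmu_piR_001526: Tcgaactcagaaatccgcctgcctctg
mmu_piR_001532: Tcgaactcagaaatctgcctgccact

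The stretch was built in steps. Members that overlapped by at least 16 nt with at most 1 mismatch were joined, which gave an upstream block of 5 members (mmu_piR_004114, mmu_piR_004115 and the mmu_piR_009082 to mmu_piR_009084 series) and a downstream block of 10. The blocks were linked by the last 11 nt of mmu_piR_009084, which are the first 11 nt of mmu_piR_004801. mmu_piR_030955 was added upstream through an overlap of 8 nt with mmu_piR_004114. The scarce piRNA mmu_piR_014859, which does not begin with U, bridges that short link, since it shares 18 nt with mmu_piR_030955 and 16 nt with mmu_piR_004114. As background, these letters are those of the B1 family of short interspersed elements (SINEs), read on the strand opposite to its usual consensus. No repeat annotation was used here.

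Exact matches to exons of GENCODE M21 (GRCm38) had the same spacing at many loci. mmu_piR_009084 matched 450 exonic loci on both strands together, and at 111 of them mmu_piR_004801 followed at the spacing of 18 nt. mmu_piR_004114 matched 828 loci, with mmu_piR_009084 at the spacing of 6 nt in 374 of them. mmu_piR_030955 matched 17 loci, with mmu_piR_004114 in place at 4. Of the 16 members of the stretch, 11 matched over 100 loci, so their reads cannot be assigned to any locus. As an example of the strands, mmu_piR_004114 matched 452 genes in sense and 367 in antisense, while mmu_piR_030955 matched 13 and 5. The other 5 members of the stretch matched fewer loci: mmu_piR_006649 had 87, mmu_piR_030955 had 17, mmu_piR_021115 had 12, mmu_piR_001530 had 8 and mmu_piR_001532 had 1. That single locus is an exon of a retained-intron transcript of Dcaf8 on chromosome 1 (172180465 to 172180490, plus strand).

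The 13 members outside the stretch were of mixed kinds. mmu_piR_007729, mmu_piR_003040 and mmu_piR_006156 overlapped each other within exon 21 of Lars2, the gene of the mitochondrial leucyl-tRNA synthetase. They stood in its 3′ UTR on the plus strand of chromosome 9, from 123462128 to 123462157, from 123462139 to 123462168 and from 123462144 to 123462169. As background, the same letters occur in 28S ribosomal RNA. A 28S sequence was not used here, so the RNA of origin was not tested. mmu_piR_003770 lay in Rnu12, which encodes the U12 small nuclear RNA of the minor spliceosome (chromosome 15, 83149764 to 83149794, plus strand). mmu_piR_006854 matched 19 small nuclear RNA genes in sense and 0 genes in antisense, and its letters are, as background, those of U2 snRNA. mmu_piR_002163 matched 3 genes of 5S ribosomal RNA on chromosome 8.

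Among the other members, mmu_piR_022194 lay in the 3′ UTR (exon 3) of Cggbp1 on chromosome 16 (64858083 to 64858109, plus strand). mmu_piR_036311 lay in the 3′ UTR (exon 10) of Senp5, a SUMO protease gene, on the same chromosome (31961517 to 31961544, minus strand). mmu_piR_004957 matched 249 exonic loci, and mmu_piR_004471, which overlaps it, matched 4. mmu_piR_032034 is a run of a 4-nt unit and matched 173 loci. mmu_piR_002142 and mmu_piR_002962 had no exonic match. The first 13 nt of mmu_piR_002962 are shared with mmu_piR_005109, a U-first piRNA with 398 control and 309 exposed reads. Some of these members are printed to show how unlike they are to the stretch and to each other.
mmu_piR_004957: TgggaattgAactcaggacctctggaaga
mmu_piR_006854: TtggctaagAtcaagtgtagtatctgttc
mmu_piR_002142: Tgaacaggatgaaatgctgactgatgg
mmu_piR_032034: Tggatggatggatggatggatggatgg

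The members had few reads. They held 53 of the control reads, or 0.0217% (0.0163 to 0.0284), and 50 of the exposed reads, or 0.0139% (0.0103 to 0.0183). The member with most reads was mmu_piR_004114, with 6 control and 8 exposed reads, and the median over members was 2 reads in both libraries together. A single read was found for 7 members and 2 reads for 8. No U-first piRNA of this length lay between 14 and 440 reads except mmu_piR_003399, left out by name, with 21 and 65 reads. The limit of 99 reads therefore fell in a wide gap, with mmu_piR_004114 (14 reads) just inside and mmu_piR_002643 (440 reads) just outside.

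Of the 29 members, 19 were detected in the control and 20 in the exposed library. Thinned to the depth of the control by total piRNA reads, the exposed library would be expected to show 16.4. Outside the most abundant piRNA, mmu_piR_000691, the libraries held 30307 and 31115 reads, so on that scale their depths were close. Both libraries shared 10 members, which is 52.6% of those in the control and 50% of those in the exposed library. The control alone held 9 and the exposed library alone 10, with at most 4 reads each. Over all 90 detected piRNAs, 76 were in the control and 77 in the exposed library, so most of the 90 were in both. The 6 abundant U-first piRNAs were all in both. A member with 1 read can stand in 1 library only, so the overlap is bounded by the read counts that chose the members. The scarce piRNAs of this length without a first-base U numbered 20, and 17 of them were in both libraries, but they held 235 and 290 reads. Restricted to the 12 with no more than 14 reads, 9 were in both libraries, or 90.0% of 10 in the control and 81.8% of 11 in the exposed library. These 12 held 41 and 59 reads, with a median of 9 reads against 2 for the members. The overlaps of the 2 sets were thus not compared at equal depth per piRNA.

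In the stretch, 8 of 16 members were in both libraries. Outside it, 2 of 13 were, namely mmu_piR_007729 and mmu_piR_002142. The difference between these counts was not tested. At the level of exact reads, 24 distinct tags were listed in the control and 28 in the exposed library, 46 in all, and 6 were the same. Those 6 tags held 14 control and 12 exposed reads. Over all detected piRNAs 220 and 230 tags were listed, with 289 distinct tags in all. A tag with 1 read can stand in 1 library only. The overlap of member tags is thus also bounded by the read counts that chose the members.

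Per 1000000 piRNA reads the members summed to 217 in the control and 139 in the exposed library, a ratio of 0.640 (0.426 to 0.960). The total is made up mostly of mmu_piR_000691, a fragment of 5S ribosomal RNA. Scaled to the reads outside mmu_piR_000691, the ratio was 0.919 (0.612 to 1.38). With edgeR TMM factors it was 0.842 (0.561 to 1.26), with DESeq2 size factors 0.832 (0.554 to 1.25), and against the total without the 10 most abundant piRNAs 1.03 (0.682 to 1.54). A difference in the summed level was thus not detectable at this depth except on the scale of all piRNA reads.

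The stretch had 29 control and 36 exposed reads, a CPM ratio of 0.842 (0.502 to 1.42). Its share of member reads was 54.7% (40.4 to 68.4) in the control and 72.0% (57.5 to 83.8) in the exposed library, with overlapping intervals. The other members had 24 and 14 reads, a ratio of 0.396 (0.189 to 0.796), which overlaps that of the stretch. Against the reads left after removing mmu_piR_000691 it was 0.568 (0.272 to 1.14), with an interval that includes 1. Within the stretch, the upstream block had 14 and 15 reads and the downstream block 12 and 20.

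For single members the counts were too small for the rule of size, which asks that 10 reads be reached in either library, that the CPM ratio be 2 or more or else 0.5 or less, and that its interval exclude 1. Of the 90 detected piRNAs, 43 could be compared, with 6.98% higher and 18.6% lower in the exposed library, and 0 of the 43 were members. With a minimum of 5 reads, 4 members could be compared and 0 were called in either direction, against 7.02% higher and 15.8% lower of 57 piRNAs. With no minimum, 0 of the 29 members were called, against 4.44% higher and 10.0% lower of 90. Members with 4 reads or fewer, most of the 29, could not have been called. Even mmu_piR_003040, with 4 control and 0 exposed reads, had an interval of 0 to 1.03. This 0 was thus largely fixed by the read counts and is not comparable with the shares over all 90.

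The 4 members with 5 reads or more in a library show how wide the counting error was. mmu_piR_004114 had 6 control and 8 exposed reads, a CPM ratio of 0.904 (0.275 to 3.16). mmu_piR_007729 had 5 and 6 reads, a ratio of 0.814 (0.207 to 3.37). These 2 were close to even between the libraries. mmu_piR_004801 had 2 and 6 reads, a ratio of 2.03 (0.364 to 20.6). mmu_piR_009083, with 5 and 2 reads, had the lowest ratio of the 4, at 0.271 (0.0258 to 1.66). Each of these intervals includes 1.

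Among members with 3 to 8 reads in all, the following were seen in both libraries: mmu_piR_006649 (4 control and 1 exposed reads), mmu_piR_009082 (1 and 4), mmu_piR_001530 and mmu_piR_001534 (1 and 3 each), and mmu_piR_002142 and mmu_piR_030955 (3 and 1 each). mmu_piR_003040 had 4 reads and mmu_piR_004957 and mmu_piR_006854 had 3 each in the control alone, while mmu_piR_004802 had 4 in the exposed library alone. Members with 2 reads in the control alone were mmu_piR_001526, mmu_piR_001532, mmu_piR_002962, mmu_piR_003770, mmu_piR_004115 and mmu_piR_004471. mmu_piR_006156 and mmu_piR_032034 had 2 reads in the exposed library alone. The 7 members with 1 read all had it in the exposed library: mmu_piR_001523, mmu_piR_001529, mmu_piR_002163, mmu_piR_009084, mmu_piR_021115, mmu_piR_022194 and mmu_piR_036311. A floor of 3 reads corresponds to 12.3 CPM for the control and to 8.34 CPM for the exposed library. In read counts, mmu_piR_003040 and mmu_piR_004802, with 4 reads each, were the only members seen in 1 library alone with more than 3 reads.

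Full-length reads were rare among the members. Of the control reads, 8 of 53 had the annotated length, or 15.1% (6.75 to 27.6), and of the exposed reads 2 of 50, or 4% (0.488 to 13.7). The difference, exposed minus control, was -11.1 points (-24.1 to 1.71) and its interval includes 0. The 10 full-length reads belonged to 4 members. In the control these were mmu_piR_002142 (3 of 3 reads), mmu_piR_003040 (3 of 4) and mmu_piR_003770 (2 of 2), all outside the stretch. In the exposed library it was mmu_piR_004801 of the stretch (2 of 6 reads). In the control the stretch had 0 full-length reads of 29, an exact interval that reaches 11.9%, against 8 of 24 in the other members, or 33.3% (15.6 to 55.3). In the exposed library the direction was the other way, with 2 of 36 in the stretch and 0 of 14 in the other members. That difference was 5.56 points (-18.1 to 18.7).

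Most reads were 3 nt shorter than their piRNA, the limit of what the files list. They made up 28 of 53 control reads, or 52.8% (38.6 to 66.7), and 32 of 50 exposed reads, or 64.0% (49.2 to 77.1). In the stretch they were 72.4% of control and 66.7% of exposed reads, against 29.2% and 57.1% in the other members. Still shorter forms are not listed in the files and were not measured. In the 6 abundant U-first piRNAs of the same length, with 11118 and 12257 reads, such reads made up 1.59% (1.37 to 1.84) and 1.38% (1.18 to 1.60), and full-length reads 61.2% (60.3 to 62.1) and 62.4% (61.5 to 63.2). The full-length share of the members minus that of the abundant U-first piRNAs was -46.1 points (-54.5 to -33.6) in the control and -58.4 points (-62.0 to -48.6) in the exposed library.

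Many 5′ ends did not lie at the annotated first base. The shares below measure agreement with the annotation, pooled over members, and not how sharply the reads of 1 member share a start. Reads that start at the annotated first base made up 26 of 53 in the control, or 49.1% (35.1 to 63.2), and 13 of 50 in the exposed library, or 26% (14.6 to 40.3). Of the 10 forms that a read up to 3 nt shorter can take, 4 keep the annotated first base. Starts 1, 2 and 3 nt inside the piRNA took 11, 13 and 3 control reads, and 13, 12 and 12 exposed reads. In the exposed library the 4 possible starts, pooled over members, were therefore used about equally. The 3′ end matched the annotation in 17 control reads, or 32.1% (19.9 to 46.3), and in 22 exposed reads, or 44.0% (29.99 to 58.7). It thus matched less often than the 5′ end in the control and more often in the exposed library. Of the 29 members, 13 had no read that began at the annotated first base.

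The share of exact 5′ ends, exposed minus control, differed by -23.1 points (-41.2 to -3.02), an interval that excludes 0 by counting error. The difference rested on few tags. Single tags of 4 control reads each stood behind mmu_piR_006649 (4 of 4 reads exact), mmu_piR_007729 (4 of 5) and mmu_piR_009083 (4 of 5), and in the exposed library the exact reads were 1 of 1, 0 of 6 and 0 of 2. Among the 10 members in both libraries, the exact share was higher in the control for 4, higher in the exposed library for 2 and equal for 4. With each member counted once, the mean shares were 45.3% and 37.5%.

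Within the stretch the reads began at 14 different positions, while the members have 5 annotated starts, of which 3 had a read at them. Only starts 0 to 3 nt inside a member could be listed, so most of the 80 positions could not hold a start. Positions are counted from 1 at the first base of mmu_piR_030955. The most used starts were position 22, with 6 control and 5 exposed reads, and position 50, with 8 and 3. Position 48 followed with 0 and 8, and position 27 with 5 and 2. Position 50 is the annotated start of mmu_piR_006649 and of 6 members that share their first 10 bases, such as mmu_piR_001526. Position 27 is that of mmu_piR_009082 to mmu_piR_009084. Positions 22 and 48 are 1 nt and 3 nt inside mmu_piR_004114 and mmu_piR_004801. Exact starts in the stretch were 13 of 29 in the control, or 44.8% (26.4 to 64.3), and 8 of 36 in the exposed library, or 22.2% (10.1 to 39.2). Outside the stretch they were 13 of 24, or 54.2% (32.8 to 74.4), and 5 of 14, or 35.7% (12.8 to 64.9). The exact share was lower in the exposed library both inside and outside the stretch, with overlapping intervals in each.

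Reads that began inside a piRNA rarely began with U. By the rule every member starts with U, so every read with an exact 5′ end does too. A first-base U was found in 26 of 53 control reads (49.1%) and in 14 of 50 exposed reads, or 28% (16.2 to 42.5). These shares therefore largely restate those of exact 5′ ends. In the exposed library 1 of these 14 reads, from mmu_piR_030955, began with U at a later base.

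The annotated sequence of 9 of the 29 members had A at position 10, or 31.03% (15.3 to 50.8). G was there in 11, C in 7 and T in 2. The share was 25.6% (16.9 to 35.8) over all 90 detected piRNAs, which include the members. It was 35.0% (15.4 to 59.2) over the 20 scarce piRNAs without a first-base U. Both shares lay within the interval of the members. Among the 6 abundant U-first piRNAs it was 0%, with an interval that reaches 45.9%. Of the 9, 6 are in the stretch, where they share starts and are not independent: the 3 that begin at position 27 and the 3 that begin at position 45. The others are mmu_piR_004957, mmu_piR_004471 and mmu_piR_006854. In the reads themselves, A stood at position 10 in 8 of 53 control reads, or 15.1% (6.75 to 27.6), and in 15 of 50 exposed reads, or 30% (17.9 to 44.6).

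No ping-pong pair was found. Among the 90 detected piRNAs, 0 of 2204 pairs with a member had 5′ ends that overlapped by 10 nt on opposite strands, and among the 289 distinct tags of both libraries 0 of 12259 such pairs did. The only detected piRNA with a complementary run of at least 12 nt to any member was mmu_piR_000802, which had 2 control and 3 exposed reads. It was complementary over 16 nt to mmu_piR_009084 and over 13 nt to mmu_piR_004801. The run begins at position 14 of mmu_piR_009084 and at position 1 of mmu_piR_004801, and at positions 12 and 10 of mmu_piR_000802. With 103 member reads in all, a rare partner could be missed, and partners outside the piRNA collection were not listed.

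The members were set beside the 20 scarce piRNAs of the same length without a first-base U, as members minus comparison. These 20 include mmu_piR_030130 and mmu_piR_038322, which together held 111 of their 235 control reads and 75 of their 290 exposed reads. The full-length share differed by -41.1 points in the control (-51.6 to -26.9) and by -36.3 points in the exposed library (-43.2 to -25.1). Without those 2 piRNAs, an alternative chosen after seeing the data, it differed by -26.0 points (-38.4 to -10.8) and by -34.6 points (-42.3 to -22.9). With comparison piRNAs of at most 49 reads, the control value turned to 1.40 points (-11.7 to 15.7) and that of the exposed library was -12.7 points (-22.0 to -0.896).

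The share of exact 5′ ends, compared in the same way, differed by -15.6 points in the control (-30.9 to -0.103) and by -28.1 points in the exposed library (-40.9 to -12.6). Without mmu_piR_030130 and mmu_piR_038322 the control value was -5.78 points (-22.4 to 11.05), and with at most 49 reads it turned to 13.4 points (-5.04 to 31.2). In the exposed library these alternatives gave -30.3 points (-43.5 to -14.4) and -26.9 points (-42.1 to -9.38). Against the 12 with no more than 14 reads, the full-length share differed by -6.86 points in the control (-24.6 to 10.1) and by -18.0 points in the exposed library (-31.2 to -4.27). Exact 5′ ends then differed by -7.04 points (-27.9 to 14.5) and by -45.2 points (-61.0 to -25.6). These 12 had a median of 9 reads against 2 for the members, so the sets were not equal in depth per piRNA. In the control the direction of both differences thus depended on which comparison piRNAs were taken.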

How the data were processed

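Each group of GC-1 cells gave 1 small RNA library, made from TRIzol-extracted total RNA by a standard Illumina preparation, per the labels' protocols. The authors deposited counts of reads per piRNA and per distinct tag, whole numbers taken as not normalised. Per the submitters' processing notes, the genome build was mm8. Which aligner, mismatch rule and piRNA collection served is not given in the sources used here. For 0 piRNAs did the tag reads disagree with the piRNA's own count, and every tag lay inside its piRNA, 0 to 3 nt shorter. Member tags that also fit another detected piRNA held 9 and 7 reads.

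Intervals of ratios came from the exact interval of the share of MC-LR reads, and those of differences from the 2 single intervals. Sequences were matched exactly to GENCODE M21 transcripts (GRCm38, a later build than mm8), with 1-based coordinates and exons only. Every member is named; sequences are shown for members of the stretch and for some others chosen after their values were seen. Members and lists were chosen with earlier results of these data known. Software was Python 3.11.15, SciPy 1.17.1, edgeR 4.0.16 and DESeq2 1.42.0, the last 2 for scaling factors alone.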

Additional observations from a re-analysis of the deposited data

How the results depend on the processing

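No paired analysis was possible because only 1 library stands for each condition. Of 136 values under other choices, 109 stayed within the interval or within 1.5 times the main value, 23 moved and 4 changed sides. Some of the 109 could not change, so their number is not a measure of stability. A lower upper limit of reads kept the same members, since none had more than 14 reads. Leaving out members of 1 read kept all control reads of the members. Where 10 reads in a library were required, 0 members could be called under any scaling or fold. The summed CPM ratio, 0.640, became 1.05 with mmu_piR_003399 kept, 1.03 against the total without the 10 most abundant piRNAs and 0.396 without the stretch. Without members of 1 read, 13 were detected in the exposed library. Without the stretch, a choice made after seeing the data, 8 and 7 members were detected and 2 shared. Full-length shares became 35.1% and 25.2% with mmu_piR_003399, and 33.3% and 0% without the stretch. A at position 10 of the reads became 13.0% in the exposed library with mmu_piR_003399, 0% and 14.3% without the stretch, and 4.55% in the control without tags that fit another piRNA.

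The differences from piRNAs without a first-base U depended on which of them were compared. With at most 49 reads, the full-length differences were 1.40 and -12.7 points, and that of exact 5′ ends in the control was 13.4. With mmu_piR_003399 kept, the full-length differences were -21.0 and -15.1 points. With each piRNA counted once they were -23.4 and -24.8, and with at most 14 reads, chosen after seeing the data, -6.86 and -18.0. Without the stretch the control value was -22.8, and without mmu_piR_030130 and mmu_piR_038322 in the comparison set it was -26.0. With at most 14 reads, exact 5′ ends differed by -45.2 points in the exposed library. The cause was not tested. No member was called under any scaling, minimum or fold tried, but members with 4 reads or fewer could not have been called. With the minimum of 10 reads, no member could have been. Depth limits all of this: 103 reads cannot show moderate differences.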
